A study of Mus musculus with 4 samples.

Results

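Matrix metalloproteinases (MMPs), the ADAMTS proteases, the ADAMTS-like proteins and the tissue inhibitors of metalloproteinases (TIMPs) were described across the cell types of the mouse lung. Members were all genes whose deposited symbol is Mmp, Timp, Adamts or Adamtsl followed by a number and at most one letter, and 51 of 57010 genes matched. The cells came from 2 genotypes of littermate C57Bl6/J mice aged 8 weeks. Cre_Pos mice carried Shh-Cre, which drives recombination in cells with a history of sonic hedgehog expression, in the lung mainly the epithelium, and a floxed p73 allele in which exons 7 to 9 lie between the loxP sites. Cre_Neg mice were homozygous for the floxed allele and had no Cre. Each genotype was 1 pool of 6 mice, and cells were not traced to single mice. Lungs had been digested with collagenase and dispase in the presence of protease inhibitors, depleted of CD45-positive cells, enriched for EpCAM-positive cells and sorted for live cells before SPLiT-seq, which labels the RNA of fixed cells by rounds of barcoding.

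MMPs are zinc-dependent proteases that cut collagens, elastin and other matrix proteins, and most are made as inactive precursors. ADAMTS proteases cut proteoglycans, trim procollagens or act on von Willebrand factor, while ADAMTS-like proteins share their ancillary domains without a protease domain and bind microfibrils. TIMPs block MMPs, and TIMP3 also blocks several ADAM and ADAMTS enzymes. In the lung these genes are known for the turnover of elastin and collagen, and MMP12 of macrophages is known from mouse models of emphysema.

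Many MMP genes lie in 1 cluster on mouse chromosome 9, and their proximal promoters are printed because neighbours that share the same short motifs differed in the cells in which they were detected. Promoters from RefSeq (GRCm38.p6) were found for 36 of the 51 members, in 39 windows of 300 bases. The stretches below run from 120 bases before to 30 bases after the annotated start, 5′ to 3′ on the coding strand, and capitals mark the AP-1 motif TGANTCA and the TATA box TATAAA, or its complement where the antisense strand holds it. All 6 genes lie on the plus strand.
Mmp3 (chr9:7445702-7445851): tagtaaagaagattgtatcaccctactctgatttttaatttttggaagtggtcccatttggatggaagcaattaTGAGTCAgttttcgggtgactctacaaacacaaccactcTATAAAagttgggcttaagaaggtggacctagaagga
Mmp10 (chr9:7502222-7502371): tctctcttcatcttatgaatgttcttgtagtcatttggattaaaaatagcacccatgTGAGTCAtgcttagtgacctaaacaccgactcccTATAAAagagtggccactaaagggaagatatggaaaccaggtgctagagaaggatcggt
Mmp12 (chr9:7347254-7347403): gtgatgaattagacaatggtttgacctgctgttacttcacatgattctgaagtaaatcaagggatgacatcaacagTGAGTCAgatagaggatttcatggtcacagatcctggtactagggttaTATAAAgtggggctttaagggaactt
Mmp13 (chr9:7272394-7272543): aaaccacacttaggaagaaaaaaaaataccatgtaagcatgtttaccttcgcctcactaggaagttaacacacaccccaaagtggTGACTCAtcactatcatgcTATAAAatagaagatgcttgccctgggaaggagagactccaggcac
Mmp8 (chr9:7558309-7558458): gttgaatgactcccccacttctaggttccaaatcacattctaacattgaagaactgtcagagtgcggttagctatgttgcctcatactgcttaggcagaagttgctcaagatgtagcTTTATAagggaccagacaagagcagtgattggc
Adamtsl2 (chr2:27079259-27079408): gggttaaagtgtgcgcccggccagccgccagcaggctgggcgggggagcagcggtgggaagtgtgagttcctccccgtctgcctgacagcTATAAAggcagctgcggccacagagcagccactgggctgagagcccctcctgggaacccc

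The AP-1 letters, searched on both strands, stood in the promoters of 8 members, and all 8 were among the 10 members on chromosome 9. None of the 26 matched members elsewhere held them, while 7.81% of the 32851 promoters in the table did. The TATA letters stood in 12 members, against 13.6% of all promoters, and all 8 members with AP-1 letters also had TATA letters. The X-box motif, which RFX factors bind, stood in 0 of the 36 members and in 0.451% of all promoters. Mmp12 has a second annotated start without any of the 3 motifs. A match is a description of the letters and no evidence of binding. Of the 8 genes with AP-1 letters, 5 (Mmp1a, Mmp1b, Mmp7, Mmp10 and Mmp20) had 2 UMIs or fewer over all cells, Mmp3 was detected in fibroblasts, and Mmp12 and Mmp13 in a cluster with macrophage markers.

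Of 647296 barcodes, 16356 were kept as cells (8660 Cre_Pos and 7696 Cre_Neg), with a median of 8219 unique transcripts (UMIs) per Cre_Pos cell and 8714 per Cre_Neg cell, against 20000 cells stated by the submitters. Every one of the 4 sublibraries mixed cells of both pools, so sublibraries are technical aliquots; they are also called replicates 1 to 4. With 1 pool per genotype no test and no SD between animals was possible, so every interval given is a 95% interval for counting error only, and PCR or capture differences are not in it. Among the cells with at least 500 genes, 574 shared their barcode triplet with a cell of another sublibrary. The targeted gene, Trp73, had 315 CPM in Cre_Pos and 334 CPM in Cre_Neg ciliated-like cells, and since UMIs were counted over the whole gene this does not check the removal of exons 7 to 9. The pools differed in make-up. Ciliated-like cells were 1.37% of Cre_Pos and 15.7% of Cre_Neg cells, and blood endothelium was 64.2% of Cre_Pos and 35.1% of Cre_Neg cells. Cells could be called by sex from Y-linked transcripts and Xist, and Y-only cells were 6.91% of the called Cre_Pos and 17.7% of the called Cre_Neg cells.

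Cells were grouped without using the member genes, which gave 25 classes with at least 20 cells each, named by marker genes with the ending "-like", among them 5 unnamed clusters. Members made up 251035 UMIs in kept cells, 0.150% of all UMIs. A single member, Mmp7 (matrilysin), had 0 UMIs, 5 had 1 to 4 (Mmp1a, Mmp1b, Mmp10, Mmp20 and Mmp21), 11 had at least 20 but fewer than 200, and 34 had at least 200, between 202 and 44588. Levels are given as CPM, a gene's UMIs scaled to a common total of UMIs per class. They are not corrected for gene length and are compared only between classes of the same gene. Of the 34 members, 15 were highest in the 2 fibroblast classes, 8 of them in adventitial and 7 in alveolar fibroblast-like cells, and 4 in mesothelial-like cells. A further 3 were highest in AT1-like cells, 2 each in neuroendocrine-like cells, neutrophil-like cells and unnamed cluster 6, and 1 each in 6 other classes. The highest class was the same in all 4 leave-outs of an aliquot for 28 of the 34 and the same in both pools for 23, counting classes with at least 20 cells in the pool.

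**Figure D1:**
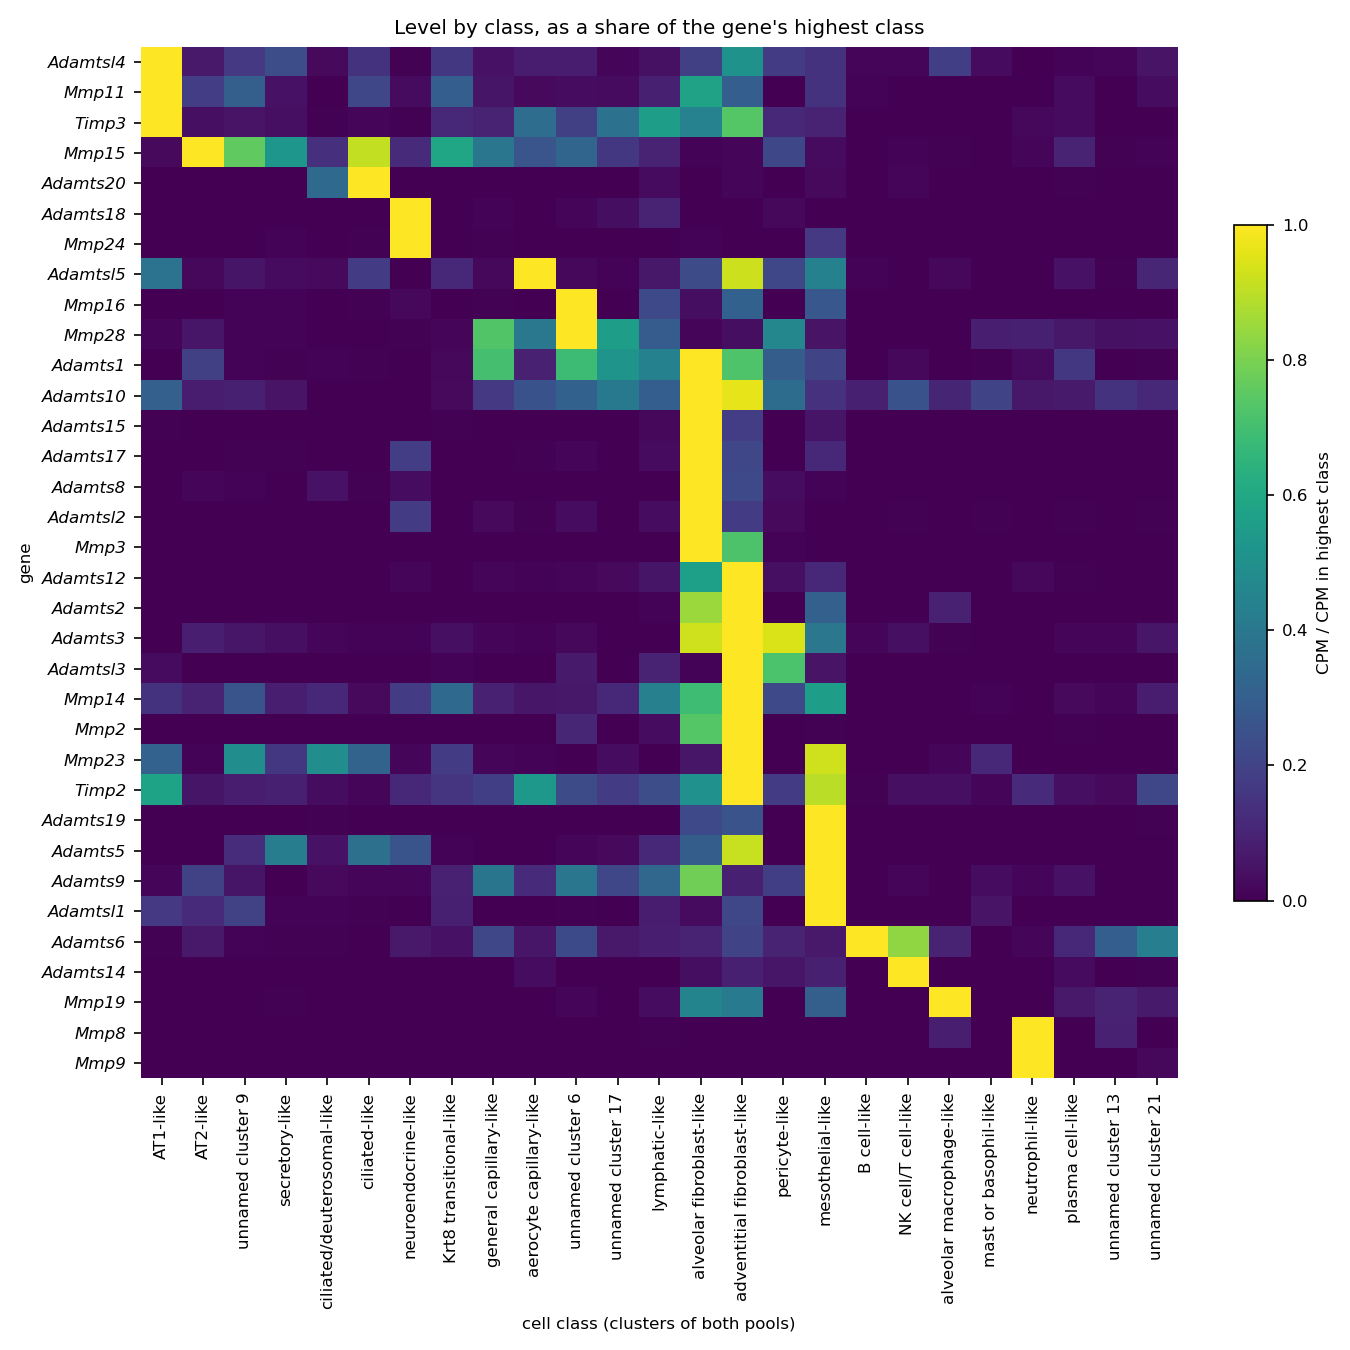
Level of the 34 members with at least 200 UMIs (rows) in the 25 classes (columns), both pools together, as CPM divided by the CPM in the gene's highest class, on a linear colour scale starting at 0. Fibroblast and mesothelial columns hold 19 of the 34 maxima, while Adamts18, Mmp24, Adamts14 and Mmp9 are bright in 1 class each.

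The collagenases, which cut fibrillar collagen, were rare in these CD45-depleted cells. Mmp8, the neutrophil collagenase, had 218 UMIs and was highest in neutrophil-like cells, with 355 CPM (276 to 450) over both pools, against 32.9 CPM in unnamed cluster 13, which carried monocyte markers. Only 4 Cre_Pos and 58 Cre_Neg neutrophil-like cells were kept, so levels in the 2 pools cannot be set against each other there. Mmp13, collagenase 3, had 21 of its 23 UMIs in unnamed cluster 21, where 8 of 8 interstitial macrophage markers passed. In that cluster 19 UMIs fell in 2 of 37 Cre_Pos cells and 2 UMIs in 1 of 78 Cre_Neg cells, and 14 of the 19 Cre_Pos UMIs were in 1 cell. Mmp1a and Mmp1b, the mouse interstitial collagenases, had 1 and 2 UMIs.

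Of the gelatinases, which cut denatured collagen, Mmp9 was a neutrophil gene and Mmp2 a fibroblast gene. Mmp9 had 87.3% of its 220 UMIs in neutrophil-like cells, at 1003 CPM (866 to 1156), against 19.9 CPM in unnamed cluster 21. Mmp2 was highest in adventitial fibroblast-like cells, at 383 CPM (353 to 415), followed by alveolar fibroblast-like cells at 282 CPM. Its level was 326 CPM in the Cre_Pos and 459 CPM in the Cre_Neg adventitial fibroblast-like cells. That class also passed 6 pericyte markers. At a finer clustering (resolution 2) 93 cells were adventitial fibroblast-like, 47 Cre_Pos and 46 Cre_Neg. A pericyte-like cluster of 50 cells with smooth muscle markers, 38 Cre_Pos and 12 Cre_Neg, appeared there. The part of pericyte-like cells in the 2 Mmp2 levels was not tested.

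Among the stromelysins, Mmp3, which has broad matrix substrates, was highest in alveolar fibroblast-like cells at 219 CPM (203 to 237) and had 158 CPM in adventitial fibroblast-like cells. Its Cre_Pos aliquots in alveolar fibroblast-like cells held 45.6, 173, 320.0 and 167 CPM, against 476, 280.2, 261 and 219.9 CPM in the Cre_Neg aliquots, and the aliquots of the pools overlapped. Mmp11, stromelysin 3, was highest in AT1-like cells at 49.9 CPM (34.7 to 69.4, 35 UMIs). The other stromelysin, Mmp10, had 1 UMI.

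Of the remaining MMPs outside the membrane-type group, Mmp12, the macrophage elastase, had 145 of its 159 UMIs in unnamed cluster 21, at 125 CPM (106 to 148). It had 4.70 CPM in alveolar macrophage-like cells. Its UMIs in cluster 21 sat in 6 of 37 Cre_Pos cells (59 UMIs) and 7 of 78 Cre_Neg cells (86 UMIs), and 1 Cre_Neg cell held 40 of them. Cre_Pos aliquots of the cluster had 0, 0, 137 and 378 CPM of Mmp12, against 183, 171, 27.3 and 7.37 CPM in the Cre_Neg aliquots. The aliquots therefore differed more within a pool than the pools did, and few cells decided each value. Mmp19, a secreted MMP with broad substrates, was highest in alveolar macrophage-like cells at 84.6 CPM (74.1 to 96.1), of which only 3 Cre_Pos cells and 201 Cre_Neg cells were kept. Mmp28, epilysin, was an endothelial gene, with 176 CPM (164 to 188) in unnamed cluster 6, a group of cells with vein and capillary markers led by Vwf and Slc6a2, and 128 CPM in general capillary-like cells. Mmp23 was spread over classes at low levels, with 22.7 CPM (15.8 to 31.6) in adventitial fibroblast-like and 21.1 CPM in mesothelial-like cells. Mmp20 (enamelysin) and Mmp21 had 1 and 4 UMIs, and Mmp27 had 23.

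The membrane-type MMPs differed in their cells. Mmp15 was highest in AT2-like cells, the surfactant-making cells of the alveolus, at 318 CPM (313 to 323), followed by ciliated-like cells at 289 CPM. Outside the epithelium, Mmp15 had 124 CPM (121 to 128) in general capillary-like and 83.6 CPM in aerocyte capillary-like cells. Barcodes with at most 50 UMIs, which stand for free RNA, had 130 CPM of Mmp15 in Cre_Pos and 140 CPM in Cre_Neg. Both values lie above those of the capillary classes, and the part of free RNA in the capillary levels was not tested. Among other epithelial classes, secretory-like cells had 167 CPM, neuroendocrine-like cells 39.3 CPM and AT1-like cells 8.55 CPM (3.14 to 18.6). In unnamed cluster 9, which carried AT2 and airway markers, 87.3% of Cre_Pos and 82.3% of Cre_Neg cells had Mmp15 UMIs. Mmp15 also had UMIs in 61.7% of Cre_Pos and 51.1% of Cre_Neg Krt8 transitional-like cells. It had at least 1 UMI in 89.8% of Cre_Pos and 85.3% of Cre_Neg AT2-like cells, and after thinning every cell to 2000 UMIs in 41.0% of Cre_Pos and 43.0% of Cre_Neg cells, so no order of the pools is read from these shares. Mmp14, which activates MMP2 at the cell surface together with TIMP2, was highest in adventitial fibroblast-like cells at 243 CPM (219 to 269), with 168 CPM in alveolar fibroblast-like cells. Mmp16 had 72.5% of its 1142 UMIs in unnamed cluster 6, at 179.6 CPM (168 to 192), against 1.10 CPM in general capillary-like cells, the neighbouring endothelium. At a finer clustering (resolution 2) the same gene reached 345 CPM in 226 vein-like cells. Mmp24 had 84.7% of its 202 UMIs in neuroendocrine-like cells, at 35.2 CPM (30.1 to 40.9). The GPI-anchored members had few UMIs, 66 for Mmp17 and 39 for Mmp25, of which 11 were in neutrophil-like cells.

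The ADAMTS proteases that cut versican and aggrecan mostly had their highest CPM in fibroblast or mesothelial-like cells, although other classes often held more of their UMIs. Adamts15 was highest in alveolar fibroblast-like cells at 442 CPM (419 to 467), with 83.0% of its UMIs there. Adamts1 was highest in the same class at 379 CPM (357 to 401) but had 59.2% of its UMIs in general capillary-like cells, and 35.3 CPM in aerocyte capillary-like cells. Adamts9 was highest in mesothelial-like cells at 1030.2 CPM (977 to 1085), followed by alveolar fibroblast-like cells at 806 CPM. General capillary-like cells had 399 CPM of Adamts9 and held 45.6% of its UMIs. Among the mesothelial-like cells, 1 Cre_Neg cell held 226 of 1013 Cre_Neg UMIs and 1 Cre_Pos cell 112 of 402 Cre_Pos UMIs. Adamts5 reached 227 CPM (203 to 254) in mesothelial-like and 208 CPM in adventitial fibroblast-like cells, and also 95.3 CPM in secretory-like and 83.8 CPM in ciliated-like cells, 2 airway classes. Ciliated-like cells held 52.9% of its UMIs. The highest class of Adamts5 was mesothelial-like in Cre_Pos and adventitial fibroblast-like in Cre_Neg, and the same in 2 of 4 leave-outs of an aliquot. Adamts8 was highest in alveolar fibroblast-like cells at 64.7 CPM (55.8 to 74.5). Adamts4 had 77 UMIs, of which 40 were in adventitial fibroblast-like cells.

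Adamts20, the versican-cleaving protease known from the belted coat of mutant mice, had 97.0% of its 4481 UMIs in ciliated-like cells. Its level there was 198 CPM (192 to 204). In secretory-like cells 0 of 47 Cre_Pos and 0 of 152 Cre_Neg cells had a UMI. Of these, 44 Cre_Pos and 131 Cre_Neg cells had at least 2000 UMIs, and among them, thinned to that depth, the exact 95% upper bounds on the share of cells with a UMI were 8.04% in Cre_Pos and 2.78% in Cre_Neg, which bound detection and not expression. The UMIs were concentrated in some of the ciliated-like cells. In Cre_Pos cells 21 of 119 (17.6%) had at least 1 UMI and 1 cell held up to 44, and in Cre_Neg cells 193 of 1208 (16.0%) had at least 1 and 1 cell held up to 100. After thinning every cell to 2000 UMIs, which left 117 Cre_Pos and 1204 Cre_Neg cells, the shares were 13.7% (8.02 to 21.3) of Cre_Pos and 13.3% (11.4 to 15.3) of Cre_Neg cells. In AT2-like cells, which should lack the gene, 0.358% of Cre_Pos and 0.0998% of Cre_Neg cells had a UMI, at median depths of 14336 and 11527 UMIs per cell. Mmp15 was detected in 47.9% of Cre_Pos and 42.8% of Cre_Neg ciliated-like cells after the same thinning, and in 93.3% of Cre_Pos and 90.9% of Cre_Neg cells before it.

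**Figure D2:**
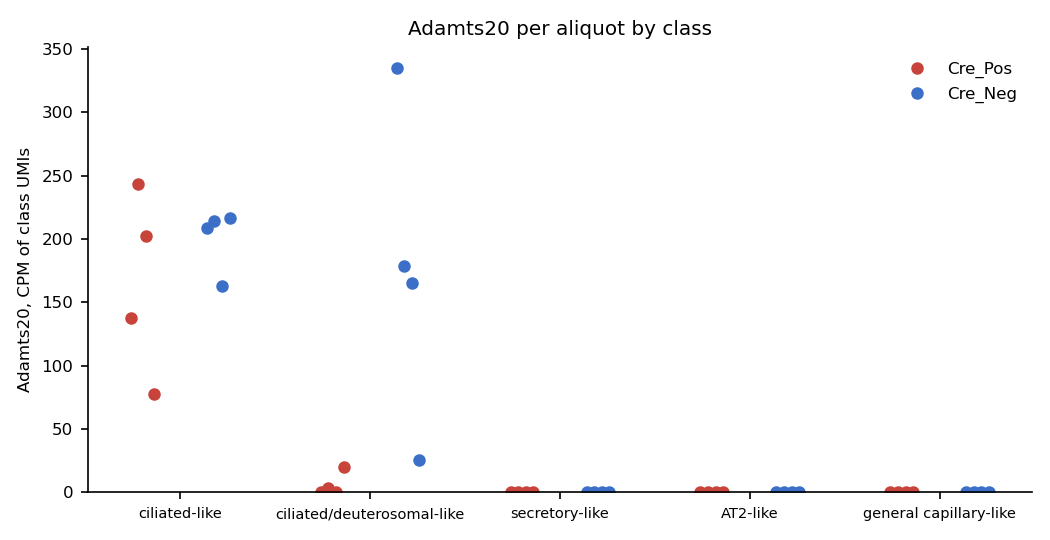
CPM of Adamts20 per aliquot (points) in 5 classes, with Cre_Pos to the left of Cre_Neg. Ciliated-like aliquots of the pools overlap, ciliated/deuterosomal-like aliquots are at most 19.9 CPM in Cre_Pos and at least 25.6 CPM in Cre_Neg, and the other classes are at or near 0.

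Of the 3 procollagen-trimming proteases, 2 were highest in fibroblast-like and 1 in lymphoid cells. Adamts2 was highest in adventitial fibroblast-like cells at 816 CPM (772 to 862), followed by alveolar fibroblast-like cells at 692 CPM. Adamts3, which also activates VEGF-C, was highest in adventitial fibroblast-like cells at 88.3 CPM (74.1 to 104), near the 83.3 CPM of pericyte-like cells. Adamts14 was a lymphoid gene in these data, with 289 CPM (264 to 316) in the joint NK cell/T cell-like class, against 25.5 CPM in mesothelial-like cells, its second class. At the finer clustering 73 NK cell-like cells held 475 of its 804 UMIs, at 1267 CPM. Adamts13, which cuts von Willebrand factor, had 176 UMIs, of which 61.9% were in aerocyte capillary-like cells at 6.25 CPM (5.13 to 7.54), near the 5.64 CPM of unnamed cluster 6 and against 0.552 CPM (0.346 to 0.836) in general capillary-like cells.

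Of the other ADAMTS genes with at least 200 UMIs, 4 were highest in fibroblast or mesothelial-like cells, Adamts6 in B cell-like cells and Adamts18 in neuroendocrine-like cells. Adamts17, which acts on fibrillin microfibrils, was highest in alveolar fibroblast-like cells at 1252 CPM (1212 to 1293), and neuroendocrine-like cells had 226 CPM. Adamts10, which also acts on microfibrils, was about equal in both fibroblast classes, with 486 CPM (461 to 512) in alveolar and 468 CPM in adventitial fibroblast-like cells. Adamts12 was highest in adventitial fibroblast-like cells at 448 CPM (415 to 483). Adamts19 was highest in mesothelial-like cells at 196 CPM (173 to 221). Adamts6, a relative of ADAMTS10, was highest in B cell-like cells at 322 CPM (300.3 to 345), and NK cell/T cell-like cells had 269 CPM. It was not confined to them, since general capillary-like cells held 41.2% of the 6584 Adamts6 UMIs and 16 classes had at least 20. Adamts18 had 88.7% of its 591 UMIs in neuroendocrine-like cells, at 108 CPM (98.8 to 117), against 10.2 CPM in lymphatic-like cells. Adamts7 and Adamts16 had 190 and 22 UMIs.

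Of the ADAMTS-like genes, Adamtsl1 (punctin) was highest in mesothelial-like cells at 2879 CPM (2790 to 2970), while AT2-like cells held 59.4% of its UMIs. Adamtsl2, which binds fibrillin and the latent TGF-beta binding proteins, was highest in alveolar fibroblast-like cells at 530.0 CPM (504 to 557), and neuroendocrine-like cells had 93.8 CPM. Adamtsl3 was highest in adventitial fibroblast-like cells at 475 CPM (441 to 510.2), with 339.7 CPM in pericyte-like cells. Adamtsl4 was highest in AT1-like cells at 161 CPM (133 to 194). Adamtsl5 was highest in aerocyte capillary-like cells at 89.8 CPM (85.4 to 94.4), and adventitial fibroblast-like cells had 83.1 CPM (69.3 to 98.8), so the intervals of those classes overlapped.

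Of the inhibitors, Timp3, which is bound to the matrix, was highest in AT1-like cells, the flat cells of gas exchange, at 2440.2 CPM (2326 to 2559), from 30 Cre_Pos and 22 Cre_Neg cells. Adventitial fibroblast-like cells had 1794 CPM of Timp3, aerocyte capillary-like cells 877 CPM, and AT2-like cells 104 CPM. Timp2 was highest in adventitial fibroblast-like cells at 874 CPM (828 to 922) and had 786 CPM in mesothelial-like and 466 CPM in aerocyte capillary-like cells. Timp1 had 63 UMIs and Timp4 had 88, of which 75 were in ciliated-like cells at 3.41 CPM (2.68 to 4.28). Lymphatic-like cells had 11.6 CPM of Timp4, from 8 UMIs.

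Over all kept cells, the question was how the 2 pools differed in members before cells were split by class. Of 45 members with at least 20 UMIs, 1 was at least 2-fold higher and 10 were at least 2-fold lower in Cre_Pos cells, against 4.61% higher and 14% lower of all 21340 genes tested by the same rule. Adamts20 had 4.75 CPM in Cre_Pos and 50.7 CPM in Cre_Neg cells, a log2 ratio of -3.41 (-3.56 to -3.27). Mmp9 had 0.242 CPM in Cre_Pos and 2.48 CPM in Cre_Neg cells, a log2 ratio of -3.36 (-4.08 to -2.71). The other lower members were Timp4, Mmp8, Adamts19, Mmp19, Adamts16, Adamts5, Mmp23 and Timp1, at log2 ratios between -1.88 and -1.01, and the higher one was Mmp13 at 3.28 (1.25 to 6.41), from 21 Cre_Pos and 2 Cre_Neg UMIs. Just short of 2-fold, Mmp28 had a log2 ratio of 0.99, and its make-up ratio as described next was 1.06. In Y-only cells alone the sign was opposite for Adamts20 at 0.41 (0.21 to 0.61), for Adamts5 at 0.91, for Mmp28 at -0.24 and for Timp1 at 0.25 (2 Cre_Pos and 3 Cre_Neg UMIs). In a whole-pool sum, fewer cells of a type and less RNA per cell cannot be told apart.

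For comparison, the log2 ratio was recomputed with each class held at its level over both pools, so that only the shares of the classes differed. The make-up ratio had the sign of the observed ratio in 38 of 45 members and lay within 0.5 of it in 37. Adamts20 had a make-up ratio of -3.05, Mmp9 of -2.94 and Adamts5 of -1.37, beside observed ratios of -3.41, -3.36 and -1.51. The make-up ratio was at least 2-fold in 9 members, and 6 were at least 2-fold in both with the same sign. Mmp13 had opposite signs, at -1.06 from make-up and 3.28 observed. Adamts19 stood apart, at -0.39 from make-up and -1.75 observed, and so did Timp1, at 0.14 from make-up and -1.01 observed with 22 Cre_Pos and 41 Cre_Neg UMIs.

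**Figure D3:**
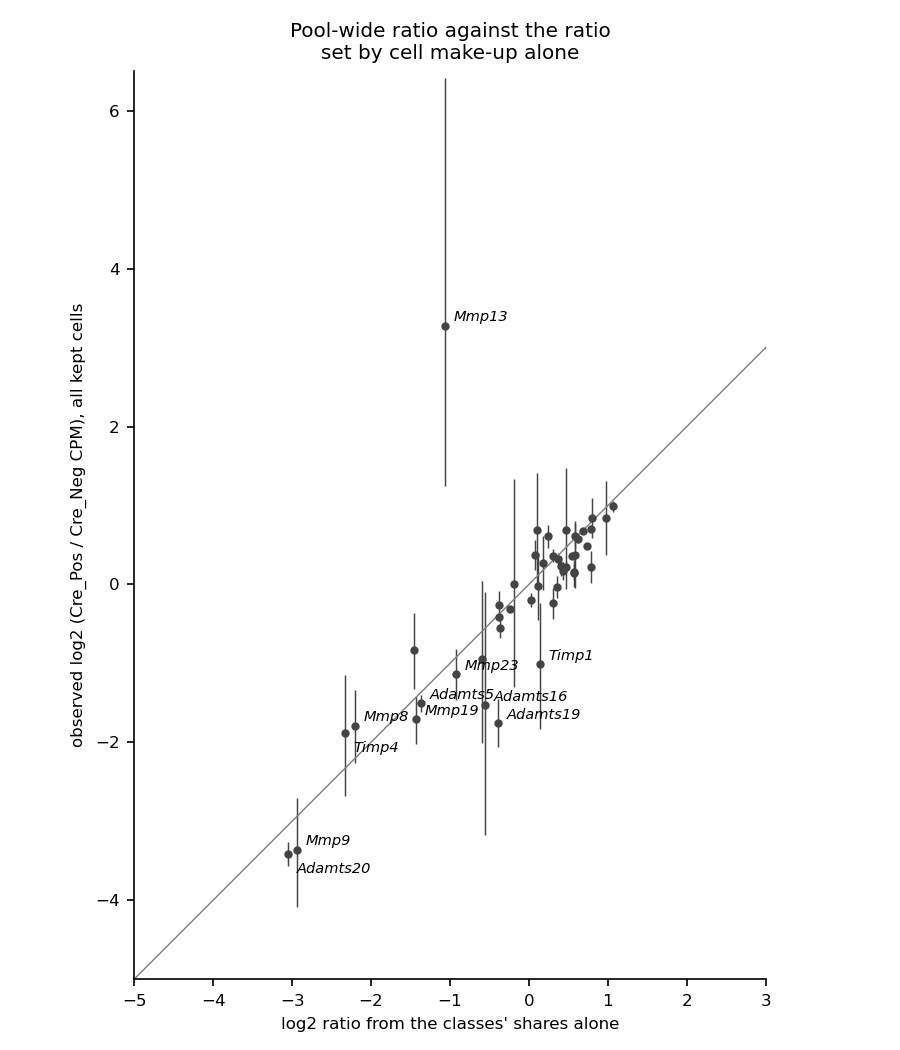
Observed log2 ratio, Cre_Pos over Cre_Neg, over all kept cells (vertical axis, bars are 95% counting intervals) against the ratio set by the classes' shares of UMIs alone (horizontal axis) for 45 members. Points near the diagonal, such as Adamts20, Mmp9 and Adamts5, have similar values on both axes, and Mmp13, Adamts19 and Timp1 lie away from it.

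In AT2-like cells (1396 Cre_Pos and 2005 Cre_Neg), members were at similar levels in both pools. Of 18 members with at least 20 UMIs, 0 were at least 2-fold higher and 0 at least 2-fold lower in Cre_Pos cells, against 1.31% higher and 1.84% lower of all genes tested, and their log2 ratios ran from -0.68 to 0.59 with a median of -0.05, against 0.01 for all genes. Without replicate 1 the count past 2-fold was 2. Mmp15 had 299, 309.6, 291 and 329 CPM in the Cre_Pos aliquots, against 325, 317, 322 and 348 CPM in the Cre_Neg aliquots, a log2 ratio of -0.09 (-0.14 to -0.04). The Cre_Pos value was the lower one in all 4 aliquots, although the ranges of the pools overlapped, and in Y-only cells alone the ratio was 0.06. Adamtsl1 had 343 CPM in Cre_Pos and 364 CPM in Cre_Neg cells, with a log2 ratio of -0.09 that was 0.33 (0.21 to 0.45) in Y-only cells alone, and Timp3 had 104 CPM in both. Timp2 was the member farthest above 0 among those with over 100 UMIs, with 57.1, 57.7, 61.5 and 45.7 CPM in the Cre_Pos aliquots, against 43.5, 46.5, 38.4 and 37.0 CPM in the Cre_Neg aliquots, a log2 ratio of 0.42 (0.30 to 0.54). The Cre_Pos and Cre_Neg aliquots of Timp2 overlapped, since the lowest Cre_Pos aliquot lay below the highest Cre_Neg one. Barcodes with at most 50 UMIs, which stand for free RNA, had 145 CPM of Timp2 in Cre_Pos and 121 CPM in Cre_Neg. These values lie above every Timp2 aliquot of AT2-like cells, and the part of free RNA in the ratio was not tested.

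In ciliated-like cells (119 Cre_Pos and 1208 Cre_Neg), 1 of 16 members was at least 2-fold higher and 0 lower in Cre_Pos cells, against 2.72% higher and 5.11% lower of all genes. It was Adamts3, from 4 Cre_Pos and 17 Cre_Neg UMIs, and the count was 3 without replicate 1 and 0 without replicate 3 or 4. Above 0 were 11 of the 16, with a median log2 ratio of 0.27, against 0.02 for all genes tested. Adamtsl1 was just below the threshold, with 37.4 CPM in Cre_Pos and 18.9 CPM in Cre_Neg cells, a log2 ratio of 0.99 (0.63 to 1.34), higher in 3 of 4 aliquots. Adamts20 had 138, 244, 203 and 77.9 CPM in the Cre_Pos aliquots, against 208, 214, 163 and 216 CPM in the Cre_Neg aliquots, a log2 ratio of -0.22 (-0.37 to -0.07). Its Cre_Pos aliquots spread on both sides of the Cre_Neg ones. Mmp15 had 289 CPM in both pools, and Adamts5 had 92.5 CPM in Cre_Pos and 82.9 CPM in Cre_Neg cells. Of the cells called by sex, 97.1% of the Cre_Pos and 16.6% of the Cre_Neg ciliated-like cells were Y-only, and among Y-only cells Adamts20 had 189.7 CPM in Cre_Pos and 149 CPM in Cre_Neg cells, a log2 ratio of 0.34 (0.14 to 0.54).

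A smaller class held markers of both ciliated cells and deuterosomal cells, their precursors. In its 63 Cre_Pos and 60 Cre_Neg cells Adamts20 had 0, 3.51, 0 and 19.9 CPM in the Cre_Pos aliquots, against 335, 178, 165 and 25.6 CPM in the Cre_Neg aliquots. The Cre_Pos values were all below the Cre_Neg ones, from 3 Cre_Pos and 82 Cre_Neg UMIs. Adamts20 UMIs were in 2 Cre_Pos and 11 Cre_Neg cells of the class, and 1 Cre_Neg cell held 43 of the 82. The median depth was 1054 UMIs in the Cre_Pos and 2046 UMIs in the Cre_Neg cells, and barcodes with at most 50 UMIs, which stand for free RNA, had 15.7 CPM of Adamts20 in Cre_Pos and 33.5 CPM in Cre_Neg. The part of depth or free RNA in the difference was not tested. With fewer than 100 cells in a pool the class was not among those compared.

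In blood endothelium, which joins capillary, artery and vein clusters (5558 Cre_Pos and 2698 Cre_Neg cells), 27 members had at least 20 UMIs, of which 2 were at least 2-fold lower and 0 higher in Cre_Pos cells, against 1.43% lower and 2.28% higher of all genes. The log2 ratio was below 0 for 21 of the 27, with a median of -0.17, against -0.01 for all 15543 genes tested. Adamtsl2 had 8.26, 7.50, 9.86 and 7.19 CPM in the Cre_Pos aliquots, against 20.0, 14.3, 19.7 and 15.5 CPM in the Cre_Neg aliquots. All 4 Cre_Pos values lay below all 4 Cre_Neg values, and the log2 ratio was -1.08 (-1.30 to -0.85). In general capillary-like cells alone Adamtsl2 had 11.6, 9.82, 12.6 and 7.81 CPM in the Cre_Pos aliquots, against 25.7, 15.6, 24.6 and 19.7 CPM in the Cre_Neg aliquots, again without overlap, a log2 ratio of -1.02 (-1.27 to -0.77). This ratio lay at the 2-fold line, at -0.98 without replicate 1, -0.94 without replicate 4 and -0.92 as the mean of per-cell CPM, and for blood endothelium the per-cell mean gave -0.93. The 8 alveolar fibroblast markers, the class in which Adamtsl2 was highest, summed to 198 CPM in Cre_Pos and 200.5 CPM in Cre_Neg blood endothelium. Free-RNA barcodes (at most 50 UMIs) had 12.6 CPM of Adamtsl2 in Cre_Pos and 14.3 CPM in Cre_Neg. All 4 Cre_Pos aliquots of blood endothelium lay below that Cre_Pos value, and the Cre_Neg aliquots were at 14.3 CPM or more. The part of fibroblast or free RNA in these ratios was not tested.

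Adamts18 was the other endothelial member past 2-fold, with 21 Cre_Pos and 36 Cre_Neg UMIs and a log2 ratio of -2.11 (-2.96 to -1.29), lower in 3 of 4 aliquots. Its UMIs were in 15 of 5558 Cre_Pos and 18 of 2698 Cre_Neg cells, and 1 Cre_Neg cell held 11 of the 36. Free-RNA barcodes (at most 50 UMIs) had 3.77 CPM of Adamts18 in Cre_Pos and 3.01 CPM in Cre_Neg, and their part was not tested. Among members with more UMIs, Timp3 had 411 CPM in Cre_Pos and 518 CPM in Cre_Neg cells, a log2 ratio of -0.33 (-0.37 to -0.30), lower in 4 of 4 aliquots. Adamts9 had 293 CPM in Cre_Pos and 385 CPM in Cre_Neg cells, at -0.40 (-0.44 to -0.35), also lower in 4 of 4. Mmp15, Timp2 and Mmp28 were between -0.09 and 0.06. Y-only cells were 3.17% of the called Cre_Pos and 15.7% of the called Cre_Neg endothelial cells, and among Xist-only cells the Adamtsl2 ratio was -1.08 (-1.32 to -0.83).

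Within the endothelium, 1 of 23 members was at least 2-fold higher and 2 lower in general capillary-like cells of the Cre_Pos pool, against 2.27% higher and 1.38% lower of all genes. In aerocyte capillary-like cells 3 of 19 were lower (Adamts12, Adamtsl2 and Adamtsl3, with 22 to 65 UMIs each) and 0 higher, against 1.5% lower and 2.65% higher of all genes. Of the 15 Cre_Neg UMIs of Adamtsl3 there, 14 were in 1 cell, and the 7 Cre_Pos UMIs were in 5 cells. In unnamed cluster 6, 0 of 18 were higher and 0 lower by 2-fold, against 2.35% higher and 1.84% lower of all genes. Mmp16 in that cluster had 139, 204, 185 and 121 CPM in the Cre_Pos aliquots, against 204, 210.4, 176 and 228 CPM in the Cre_Neg aliquots, and the pools overlapped.

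In fibroblasts, for which the alveolar and adventitial classes were joined after the cell numbers were seen (220 Cre_Pos and 155 Cre_Neg cells), 4 of 30 members were at least 2-fold lower and 0 higher in Cre_Pos cells, against 3.37% lower and 3.99% higher of all genes. Below 0 were 20 of the 30, with a median log2 ratio of -0.34, against 0.00 for all 10840 genes tested. Adamtsl1 had 90.5, 112, 175 and 109 CPM in the Cre_Pos aliquots, against 670.1, 438, 388 and 373 CPM in the Cre_Neg aliquots. The pools did not overlap, and the log2 ratio was -1.92 (-2.12 to -1.74). Adamtsl1 UMIs were in 51 of the Cre_Pos and 71 of the Cre_Neg fibroblasts, and the highest cell held 10.4% of the Cre_Pos and 9.81% of the Cre_Neg UMIs. The difference was present in both fibroblast classes, with 41.5 CPM in Cre_Pos and 131 CPM in Cre_Neg alveolar fibroblast-like cells, and 271 CPM in Cre_Pos and 1076 CPM in Cre_Neg adventitial fibroblast-like cells. In Y-only cells alone the Adamtsl1 ratio had the opposite sign, 0.45 (-0.08 to 0.99), from 11 Cre_Pos and 16 Cre_Neg fibroblasts, and in Xist-only cells it was -2.41 (-2.64 to -2.18).

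Adamts19 had 19.9, 22.4, 30.6 and 29.1 CPM in the Cre_Pos aliquots of fibroblasts, against 143, 30.1, 52.9 and 99.7 CPM in the Cre_Neg aliquots. The highest Cre_Pos aliquot lay just above the lowest Cre_Neg one, and the log2 ratio was -1.48 (-1.93 to -1.05). Both Adamtsl1 and Adamts19 were highest in mesothelial-like cells, and the 7 mesothelial markers summed to 12.1 CPM in Cre_Pos and 20.3 CPM in Cre_Neg fibroblasts, with 5 of the 7 at 0 in each pool. Adventitial fibroblast markers summed to 2439 CPM in Cre_Pos and 3856 CPM in Cre_Neg fibroblasts, alveolar fibroblast markers to 10765 CPM in Cre_Pos and 8475 CPM in Cre_Neg, and pericyte markers to 1833 CPM in Cre_Pos and 795 CPM in Cre_Neg. Their part in the ratios was not tested. The other members past 2-fold were Timp1, with 9 Cre_Pos and 26 Cre_Neg UMIs, and Mmp16, with 41 Cre_Pos and 64 Cre_Neg UMIs, whose ratio of -1.06 was 2.27 in Y-only cells alone (16 Cre_Pos and 4 Cre_Neg UMIs). Adamts4 was just short of 2-fold, with a log2 ratio that rounds to 1.00 (0.11 to 1.96), from 40 Cre_Pos and 15 Cre_Neg UMIs.

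The remaining fibroblast genes were closer. Timp2 had 470.4 CPM in Cre_Pos and 749.9 CPM in Cre_Neg fibroblasts, a log2 ratio of -0.67 (-0.78 to -0.56), and Mmp2 had 278 CPM in Cre_Pos and 369 CPM in Cre_Neg fibroblasts, at -0.41 (-0.56 to -0.26). Both were lower in 4 of 4 aliquots, as were Mmp14, Mmp3 and Timp3. The part of the adventitial, alveolar and pericyte markers given above in these ratios was not tested either. Adamts17 was level, with 914 CPM in Cre_Pos and 913 CPM in Cre_Neg fibroblasts, and Adamts15 was at 0.42 (0.26 to 0.58).

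**Figure D4:**
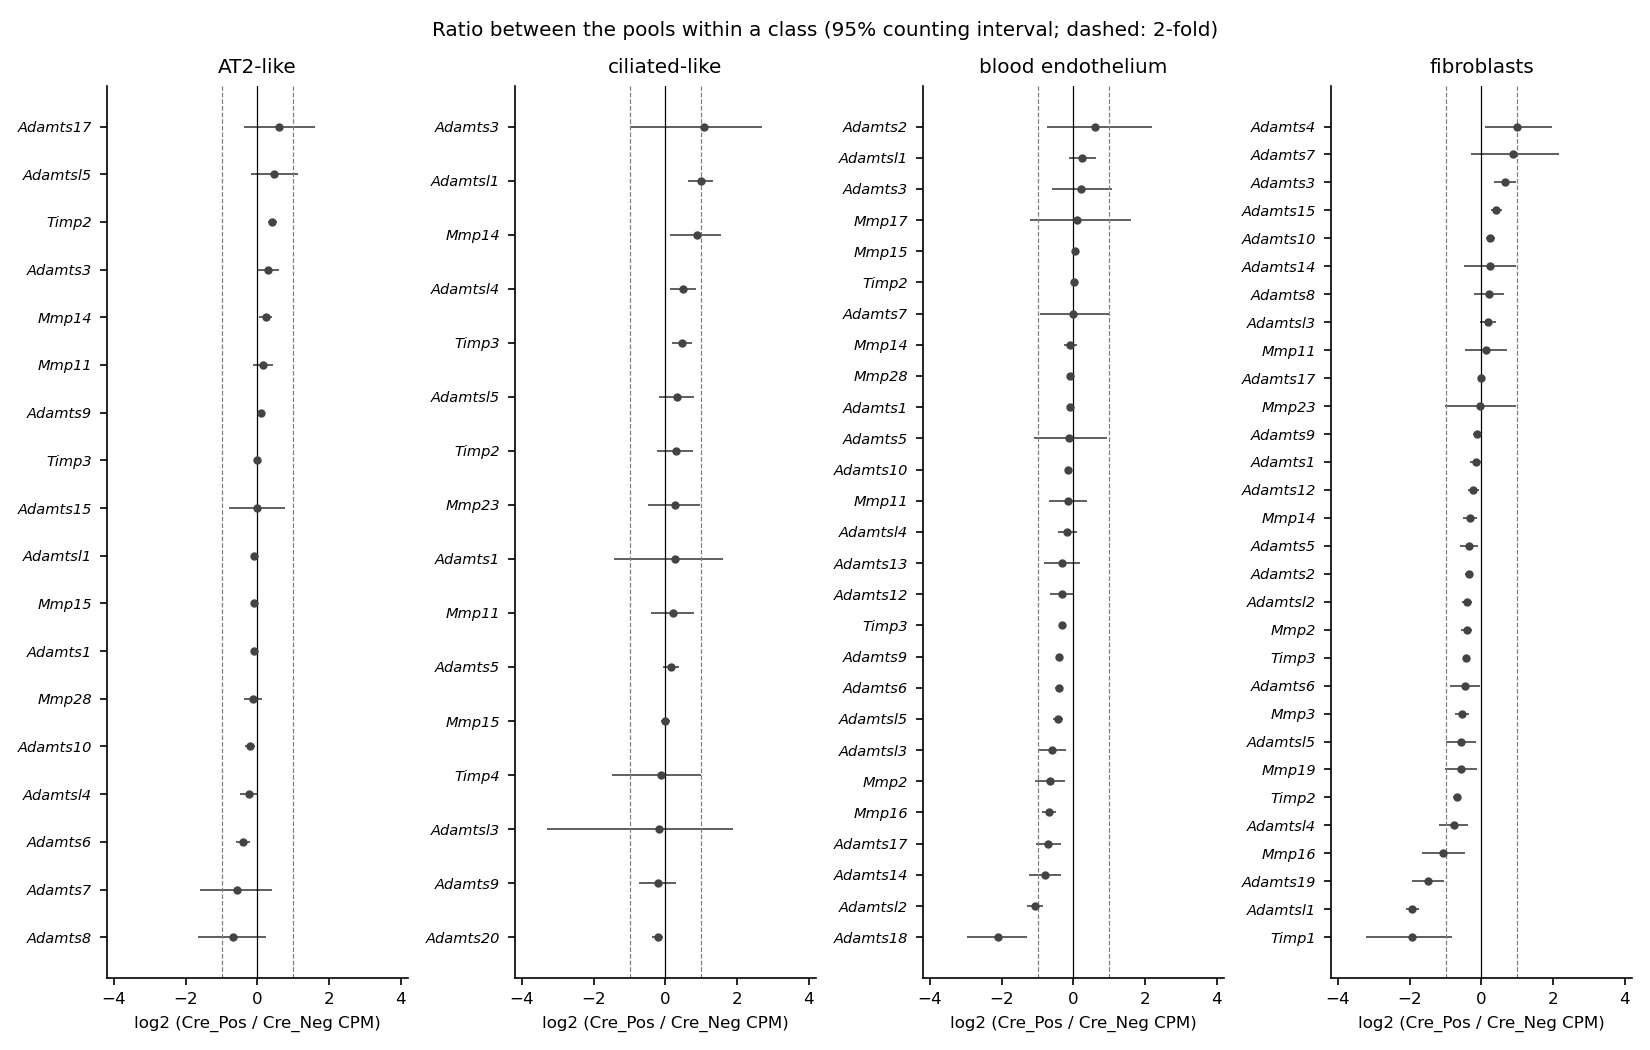
Log2 ratio of CPM, Cre_Pos over Cre_Neg, of every member with at least 20 UMIs in 4 classes, with 95% counting intervals and dashed lines at 2-fold. In AT2-like cells no member passes a line, in blood endothelium and fibroblasts most points lie below 0, and Adamtsl1, Adamts19 and Timp1 are the lowest in fibroblasts.

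In neuroendocrine-like cells (176 Cre_Pos and 136 Cre_Neg), 2 of 13 members were at least 2-fold higher (Adamts9 and Mmp16, with 65 and 20 UMIs) and 1 lower in Cre_Pos cells, against 2.98% higher and 2.37% lower of all genes. For Adamts9, 1 Cre_Pos cell held 19 of 54 Cre_Pos UMIs. Barcodes with at most 50 UMIs had 218 CPM of Adamts9 in Cre_Pos and 215 CPM in Cre_Neg, and their part was not tested. Mmp16 had 18 UMIs in 5 Cre_Pos cells, 8 of them in 1 cell, and 2 UMIs in 1 Cre_Neg cell. Adamts6 had 22.3, 9.24, 10.6 and 20.9 CPM in the Cre_Pos aliquots, against 34.4, 38.3, 29.2 and 25.9 CPM in the Cre_Neg aliquots. The pools did not overlap, and the log2 ratio was -1.13 (-1.71 to -0.55) from 48 Cre_Pos and 57 Cre_Neg UMIs. It was short of 2-fold without replicate 2 (-0.81), as the mean of per-cell CPM (-0.86) and without the mitochondrial and doublet filters (-0.93). Free-RNA barcodes (at most 50 UMIs) had 46.9 CPM of Adamts6 in Cre_Pos and 45.7 CPM in Cre_Neg, above every aliquot of these cells. The part of free RNA in the Adamts6 ratio was not tested. The neuroendocrine genes Adamts18 and Mmp24 were within 2-fold, at 116 and 34.0 CPM in Cre_Pos and 93.6 and 37.4 CPM in Cre_Neg cells.

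Unnamed cluster 9 carried AT2 markers together with the airway genes Scgb1a1 and Cyp2f2 (228 Cre_Pos and 175 Cre_Neg cells), and 3 of 15 members were at least 2-fold higher and 2 lower in its Cre_Pos cells, against 5.62% higher and 3.31% lower of all genes. Adamts9 had 70.9, 69.7, 92.1 and 60.5 CPM in the Cre_Pos aliquots, against 27.1, 14.5, 41.9 and 32.4 CPM in the Cre_Neg aliquots, a log2 ratio of 1.41 (1.02 to 1.81). Adamts5 had 11.5, 9.35, 8.28 and 35.7 CPM in the Cre_Pos aliquots, against 22.9, 66.6, 66.4 and 43.2 CPM in the Cre_Neg aliquots, a log2 ratio of -1.73 (-2.17 to -1.29). The pools did not overlap for Adamts9 and did for Adamts5. Free-RNA barcodes (at most 50 UMIs) had 218 CPM of Adamts9 in Cre_Pos and 215 CPM in Cre_Neg, above every aliquot of the cluster. For Adamts5 they had 11.3 CPM in Cre_Pos and 21.6 CPM in Cre_Neg. The part of free RNA in these ratios was not tested. A single Cre_Pos cell held 33.8% of the 68 Cre_Pos UMIs of Adamts5, and without replicate 4, whose Cre_Pos value stood apart, the Adamts5 ratio was -2.50. In Y-only cells alone (43 Cre_Pos and 14 Cre_Neg) both ratios had the opposite sign, 1.64 for Adamts5 and -0.46 (-1.41 to 0.60) for Adamts9, and in Xist-only cells they were -2.91 for Adamts5 and 1.76 for Adamts9. Y-only cells were 20.7% of the called Cre_Pos and 8.97% of the called Cre_Neg cells of the cluster. Secretory markers summed to 12050 CPM in the Cre_Pos and 22366 CPM in the Cre_Neg cells of the cluster, and AT2 markers to 8579 CPM in the Cre_Pos and 5666 CPM in the Cre_Neg cells, and their part in both ratios was not tested.

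Of the lymphoid and monocyte classes, NK cell/T cell-like cells had 1 of 5 members at least 2-fold lower in Cre_Pos cells (Adamts9, 8 Cre_Pos and 18 Cre_Neg UMIs) and 0 higher, against 5.95% lower and 4.24% higher of all genes. All 18 Cre_Neg UMIs were in 1 of 102 cells, and the 8 Cre_Pos UMIs were in 3 of 179 cells. General capillary markers, which mark a class rich in Adamts9, summed to 111 CPM in Cre_Pos and 296 CPM in Cre_Neg cells of this class, and their part in the ratio was not tested. B cell-like cells had 0 of 2 past 2-fold either way, against 2.78% higher and 6.35% lower of all genes. Unnamed cluster 13 had 0 of 4, against 3.3% higher and 3.12% lower of all genes. Adamts14 in NK cell/T cell-like cells had 268, 222, 249 and 240.1 CPM in the Cre_Pos aliquots, against 266, 419, 318 and 559.5 CPM in the Cre_Neg aliquots, and the aliquots of the pools overlapped. Adamts6 in B cell-like cells had 385 CPM in Cre_Pos and 277 CPM in Cre_Neg cells, a log2 ratio of 0.48.

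**Figure D5:**
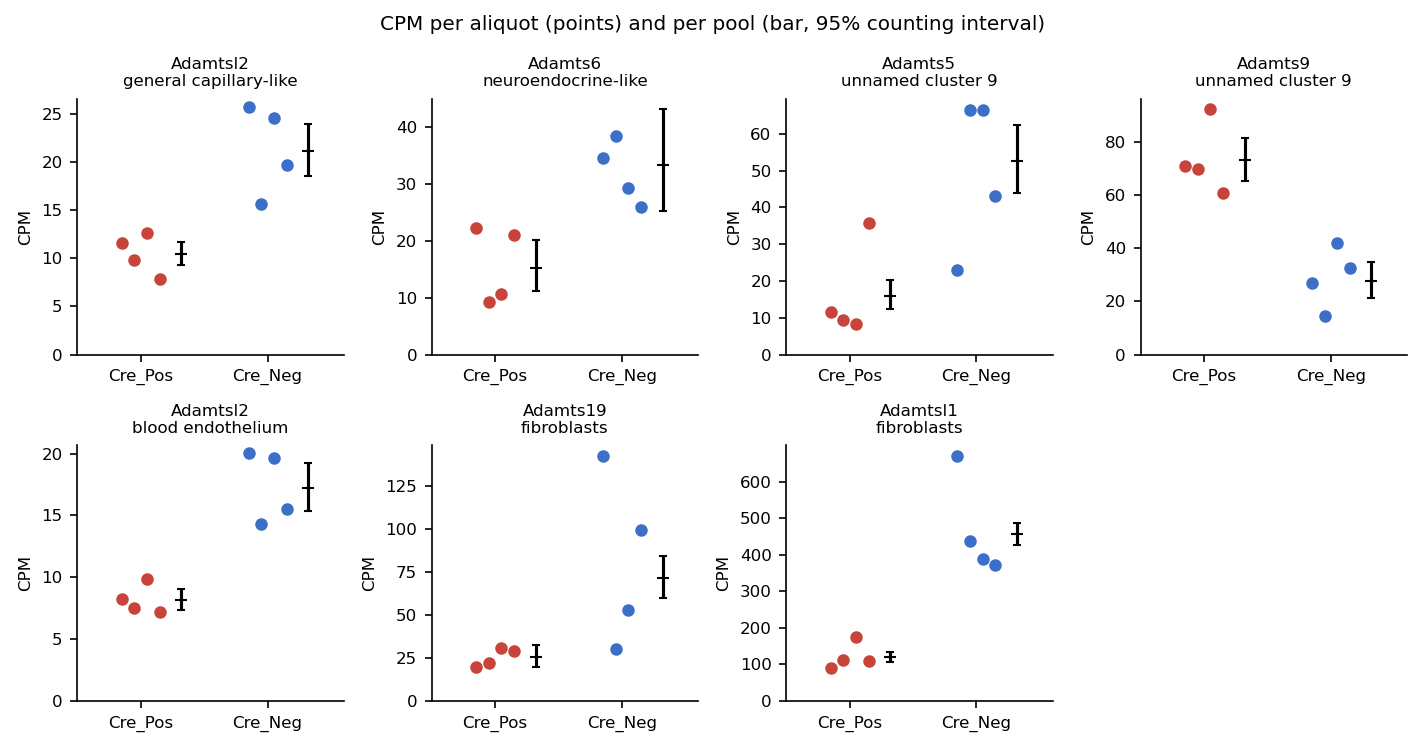
CPM of the members that were at least 2-fold apart with at least 100 UMIs and the same direction in 4 of 4 aliquots. Points are aliquots, horizontal marks with bars are the pool's value with its 95% counting interval, Cre_Pos stands left of Cre_Neg and every vertical axis starts at 0. Adamtsl2, Adamts6, Adamts9 in unnamed cluster 9 and Adamtsl1 show no overlap between the pools, and Adamts5 and Adamts19 do.

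Genes that act with the members were taken from a list of 22 other proteases and regulators and a list of 15 substrates. In AT2-like cells 1 of 16 proteases and regulators (Plaur, the urokinase receptor) and 4 of 11 substrates (Fbn1, Fn1, Vwf and Lama2) were at least 2-fold higher in Cre_Pos cells and 0 lower, against 1.31% higher and 1.84% lower of all genes, from 32 to 127 UMIs each for the substrates. Vein markers, of which Vwf is one, summed to 46.4 CPM in Cre_Pos and 42.4 CPM in Cre_Neg AT2-like cells, and adventitial fibroblast markers to 10.5 CPM in Cre_Pos and 8.75 CPM in Cre_Neg. Pericyte markers summed to 11.4 CPM in Cre_Pos (aliquots 4.02 to 17.9) and 4.25 CPM in Cre_Neg (aliquots 3.57 to 4.70). Their part in these ratios was not tested. In blood endothelium 2 of 18 proteases and regulators were at least 2-fold higher and 0 lower, against 2.28% higher and 1.43% lower of all genes. Thsd4, an ADAMTS-like protein that binds fibrillin, had 69.6 CPM in Cre_Pos and 33.9 CPM in Cre_Neg cells, a log2 ratio of 1.04 (0.91 to 1.16), and Lrp1, a receptor that clears proteases, had a ratio of 1.21 (0.68 to 1.78). In fibroblasts 0 of 12 substrates passed 2-fold, against 3.37% lower and 3.99% higher of all genes. Of the 12 substrates, 11 were below 0, with a median of -0.30, against 0.00 for all genes tested. Among them Col1a2 had 1356 CPM in Cre_Pos and 2058 CPM in Cre_Neg fibroblasts. Fn1, the one above 0, had 1606 CPM in Cre_Pos and 1092 CPM in Cre_Neg fibroblasts. Col1a1, on the substrate list, is also an adventitial fibroblast marker. Adventitial markers were lower and pericyte markers higher in Cre_Pos fibroblasts, as given above, and their part in the substrate ratios was not tested. Plat, tissue plasminogen activator, was the one protease of 15 past 2-fold in fibroblasts, at -1.35 (-1.63 to -1.06), against 3.37% lower and 3.99% higher of all genes.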

How the data were processed

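Transcripts (UMIs) of single cells were measured by SPLiT-seq with the Parse Evercode WT v2 kit, per the labels' protocols, in 4 aliquots that each mixed both pools. The deposited matrix holds whole UMI counts per barcode and gene, which the authors had not normalized. Other deposited columns hold barcode, pool, well and gene names and no measurement. The submitters' processing notes name GRCm39 and the gene table names mm10, so no gene coordinates come from the files. Aligner and counter: not given in the sources used here. Genes per barcode recounted from the matrix equalled the deposited number in 647295 of 647296 barcodes.

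Barcodes needed 500 genes (16579 cells) and no more than 15% mitochondrial UMIs (16541 cells), and Scrublet, run per aliquot, took out 185 doublets (1.12%). Clustering used 2976 variable genes without the members, 30 principal components, 15 neighbours and Leiden resolution 1, and 25 of 30 clusters were named (Python 3.11.15 with scanpy 1.11.5 and leidenalg 0.10.2). A marker passed at 4 times the median cluster's CPM, with 10 added to both, and UMIs in at least 10% of cells. A named cluster needed 3 passing markers and no other type with more markers among the 10 genes of largest fold. These naming limits were set after seeing the data, as was the joined fibroblast class.

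Ratios are log2 of the CPM of summed UMIs, Cre_Pos over Cre_Neg, with exact conditional binomial intervals. Levels have exact Poisson and shares exact Clopper-Pearson intervals. Ratios needed at least 20 UMIs over both pools, and a pool at 0 was set to a floor of 3 counts. Members with at least 200 UMIs were named with their highest class among those of at least 20 cells. Members were given per aliquot where a class had 100 cells in each pool and the gene 100 UMIs, a 2-fold difference and 1 direction in 4 of 4 aliquots. Other genes named or given per aliquot were chosen after their values were seen. The ratio code was tested on simulated counts. Protein sequences were not used here. The members and lists were chosen with earlier results of these data known.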

Additional observations from a re-analysis of the deposited data

Results flagged for a closer look

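In unnamed cluster 9 the Cre_Pos aliquots of Adamts5 held 3 values between 8.28 and 11.5 CPM and a highest one of 35.7 CPM, which stood apart from the other 3. It was the only one of 14 groups of 4 aliquots examined that did so, and chance gives such a value in about 1 of 20 groups.

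Adamts6 had opposite directions in different classes. Its log2 ratio, Cre_Pos over Cre_Neg, was 0.48 in B cell-like cells, higher in 4 of 4 aliquots, and it was -1.13 in neuroendocrine-like cells, -0.98 in unnamed cluster 13 and -0.41 in blood endothelium, each lower in 4 of 4 aliquots. Adamts9 was at 1.41 in unnamed cluster 9, higher in 4 of 4 aliquots, and at -0.40 in blood endothelium, lower in 4 of 4. The difference between classes was not tested, since each genotype was 1 pool. A total of 31 pairs of classes were looked at for such opposite directions.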

How the results depend on the processing

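Counts of members past 2-fold in AT2-like cells were 0 as reported, 9 with no filter on low counts, 2 in Y-only cells and 0 to 2 when 1 aliquot was left out (2 without replicate 1). In ciliated-like cells the count was 1, and it was 12 with no filter, 0 with at least 50 UMIs, 2 without the mitochondrial and doublet filters, 2 in Y-only cells, 11 in Xist-only cells (3 Cre_Pos cells), 2 with the mean of per-cell CPM and 0 to 3 when 1 aliquot was left out (3 without replicate 1, 0 without replicate 3 or 4). In blood endothelium the count was 2, and it was 9 with no filter, 1 with the mean of per-cell CPM and 2 to 3 when 1 aliquot was left out. In the other classes together it was 9, and it was 27 with no filter, 5 with at least 50 UMIs and 6 to 10 when 1 aliquot was left out. In fibroblasts (4) and over all kept cells (11) every alternative run stayed within 1.5 times the count.

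In Y-only cells the log2 ratio of Adamts5 in unnamed cluster 9 was 1.64 (45 Cre_Pos and 3 Cre_Neg UMIs), that of Adamts9 there was -0.46 (42 Cre_Pos and 12 Cre_Neg UMIs) and that of Adamtsl1 in fibroblasts was 0.45 (66 Cre_Pos and 58 Cre_Neg UMIs), each opposite to the reported direction; the cause was not tested. Those groups held 43 Cre_Pos and 14 Cre_Neg cells of cluster 9 and 11 Cre_Pos and 16 Cre_Neg fibroblasts. In Xist-only cells the 3 ratios were -2.91, 1.76 and -2.41. The other 4 ratios recomputed under every alternative (Adamtsl2 in general capillary-like cells and in blood endothelium, Adamts6 in neuroendocrine-like cells and Adamts19 in fibroblasts) kept their sign, although Adamtsl2 and Adamts6 fell short of 2-fold under some. Other ratios were recomputed by sex call only, and some changed sign in Y-only cells, among them Adamts20 in ciliated-like cells (0.34 in Y-only cells, against -0.22 in all cells). The median log2 ratio of all genes tested lay between -0.06 and 0.04 in the classes compared. No paired analysis was possible because the 4 aliquots are technical splits of the same 2 pools, so the comparisons of the pools within an aliquot are descriptions and no fit with a replicate block was made.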
